A study of Homo sapiens with 16 samples.

Results

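The 57 genes described here encode heterogeneous nuclear ribonucleoproteins (hnRNPs) other than the H/F family, and further proteins that bind RNA and regulate splicing. They were taken by symbol from 61906 genes in all. The rule uses no measured value, but the list was chosen with earlier results of these data known. Their transcripts were followed in a pair of established human lines: HEK-293T, which derives from embryonic kidney and expresses SV40 large T antigen, and HT-1080, which derives from a fibrosarcoma. Each line had been transfected for 48 h with 20 nM of a small interfering RNA (siRNA) against HNRNPH1 (siHNRNPH1) or with a negative control siRNA (siNegative), both with Lipofectamine RNAi-Max. Short-read RNA sequencing covered 3 biological replicates in each of the 4 groups, and long-read sequencing of full-length cDNA (IsoSeq) covered 1 pool of replicates per group. The question was which of these regulators changed in level, or in the transcript variants they make, when HNRNPH1 was lowered in either line or in both.

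HnRNPs coat nascent transcripts and decide, together with SR proteins, which splice sites the spliceosome uses. HNRNPH1 itself binds runs of G and can favour or repress an exon depending on where it binds. Splicing regulators often control their own transcripts and each other's, commonly through exons or introns whose inclusion leads to nonsense-mediated decay of the mRNA. Level and variant are therefore both of interest for such genes, and both are given below.

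The depth of the HEK-293T libraries was 107.8 to 121.0 M (mega) expected counts, and that of the HT-1080 libraries 27.3 to 32.7 M. One library stands far apart from its group. The log2 CPM (counts scaled to a library total of 1 M) of HEK-293T siHNRNPH1 replicate 1 correlated with a fellow replicate at a Pearson r as low as 0.962 across genes, against at least 0.999 among the siNegative libraries of that line and at least 0.996 within the groups of HT-1080. In that library, 71 of 230 member transcripts with at least 5% of their gene lay more than 10 percentage points from the mean of the other 2 replicates, against 2 to 5 in the siNegative libraries. Results for HEK-293T are therefore given with it and without it. In HT-1080, siNegative replicate 2 differed most from its fellows. The chi-square per degree of freedom over genes was 16.2 and 15.8 for its pairs, against 1.74 between replicates 1 and 3. Without it, 53 HT-1080 members were called at gene level rather than 49, and 11625 of all genes rather than 10538. All 8 HT-1080 marker genes fixed for the check of the line labels were higher in the HT-1080 controls, while 5 of 8 HEK-293T markers were higher in the HEK-293T controls (LHX1, NEFL and KRT18 were not). The summed level of the HT-1080 markers was 10989 to 11019 CPM in the siNegative libraries of that line and 6936 to 6961 CPM in its siHNRNPH1 libraries. The part of this shift in the results below was not tested.

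HNRNPH1 (ENSG00000169045.17), the target of the siRNA, stood at 1107, 1105 and 1121 CPM in the HEK-293T siNegative libraries and at 234.1, 376.2 and 394.3 CPM after siHNRNPH1. Its log2 fold change was -1.76 (SE 0.20, edgeR quasi-likelihood test with Benjamini-Hochberg (BH) adjustment, adjusted p = 0.00939), and -1.58 without replicate 1. Even this HEK-293T call was lost under 5 of 12 alternatives, leaving out any one siNegative library among them (edgeR adjusted p up to 0.076). The log2 fold change stayed between -1.89 and -1.58 over these alternatives. Levels in HT-1080 were 634.6, 605.8 and 617.2 CPM with siNegative and 231.5, 231.0 and 228.5 CPM with siHNRNPH1 (log2 fold change -1.49, SE 0.04, edgeR adjusted p = 6.76e-09). The target was thus lower in all 6 siHNRNPH1 libraries than in any control of its line.

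Across the regulators, the prevailing direction after siHNRNPH1 was down, and it was clearest in HT-1080. There, 45 of 55 members tested fell and 4 (PCBP2, MBNL2, CELF1 and RBM5) rose by the edgeR test at an adjusted p below 0.05, against a background of 32.6% of all 16145 genes tested called lower and 32.7% called higher (65.3% in all). The groups did not overlap in CPM for 44 of the 55, where they did not for 70.5% of genes. The median log2 fold change of the members was -0.43, beside 0.01 over all genes. Most of the shifts were small: CELF2 was the 1 member past an absolute log2 fold change of 1, where 15.6% of all genes tested were called past it. The members also sat at higher levels than most genes, with a median control level of 216 CPM against 18.6 CPM over all genes tested in HT-1080. The part of this in the counts was not tested. In these bulk libraries, fewer cells of one kind and less RNA per cell cannot be told apart.

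In HEK-293T, 5 of 56 members tested passed, where 10.0% of all 19966 genes tested did. TAF15, FUBP1 and SFPQ fell (4.88% of genes were called lower) and KHDRBS3 and ESRP2 rose (5.12% were called higher). FUBP1 and TAF15 were the 2 past an absolute log2 fold change of 1 (5.87% of genes were called past it). The groups did not overlap in CPM for 36 members, against 43.7% of genes. At an unadjusted p below 0.05 there were 10 members (also HNRNPU, HNRNPUL2, KHSRP, PTBP3 and RAVER1). DESeq2 called 6 members, the same 5 and HNRNPUL2, where it called 3982 genes in all. The median over the members was -0.21, beside 0.02 over all genes. Without siHNRNPH1 replicate 1, 48 of 56 members passed, 38 lower and 10 higher, where 61.8% of all genes were called (31.3% lower, 30.5% higher). FUBP1, MBNL1 and TAF15 were then past an absolute log2 fold change of 1, where 10.6% of genes were called past it. The members that rose in that fit were HNRNPUL1, FUBP3, KHSRP, KHDRBS3, MBNL1, MBNL2, CELF2, ESRP2, TIAL1 and RBM4. The count with all 6 libraries was unstable, as leaving out any one library other than siHNRNPH1 replicate 1 left 0 or 1 members called. TAF15 was the 1, and it too lost its call without siNegative replicate 2 or 3 (edgeR adjusted p up to 0.062 over the alternatives). The loss was not particular to the members. Over all genes, the 1997 calls became 0 without siNegative replicate 2 or 3 and 20 without siNegative replicate 1. Without siHNRNPH1 replicate 2 they were 245, and without siHNRNPH1 replicate 3 they were 639. ESRP1 was near 0 in both lines and ESRP2 near 0 in HT-1080, so these were not tested there.

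Members called in both lines in the same direction numbered 3 of 55, where 5.42% of genes were called in both: TAF15, FUBP1 and SFPQ, all lower (2.8% of genes were lower in both); 0 were higher in both by edgeR, by DESeq2 or at an unadjusted p below 0.05 (2.62% of genes were by edgeR). KHDRBS3 was called in both with opposite signs (1.47% of genes were). Without HEK-293T siHNRNPH1 replicate 1, 34 members were lower in both lines (16.7% of genes) and MBNL2 alone was higher in both (15.0% of genes), while HNRNPUL1, PCBP2, KHSRP, KHDRBS3, CELF2, TIAL1 and RBM5 were called with opposite signs (15.2% of genes). The cell lines share no control libraries.

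**Figure D1:**
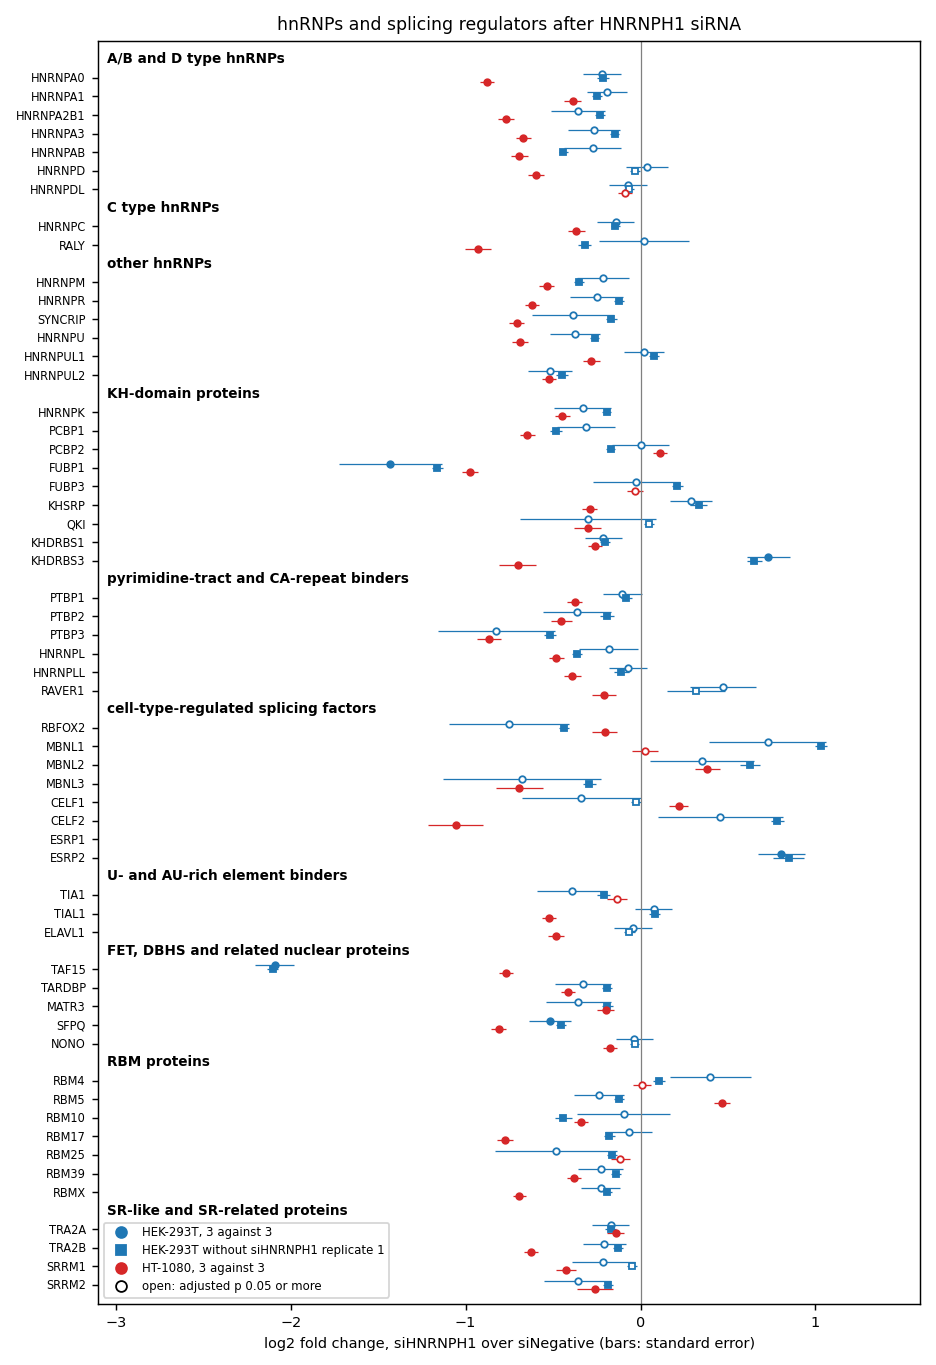
Log2 fold change of siHNRNPH1 over siNegative (x axis; bars are standard errors) for each tested member, grouped by role; blue circles are HEK-293T, blue squares HEK-293T without siHNRNPH1 replicate 1, red circles HT-1080, and open symbols have an adjusted p of 0.05 or more. Red points lie mostly left of 0, from -1.06 (CELF2) to 0.47 (RBM5), and TAF15 in HEK-293T lies far to the left at -2.09, and at -2.10 without replicate 1.

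TAF15 (ENSG00000270647.7), a nuclear protein that binds RNA and associates with the transcription machinery, had the most negative fold change of the members in HEK-293T. Its siNegative libraries read 419.8, 433.3 and 407.4 CPM and its siHNRNPH1 libraries 97.9, 104.1 and 99.3 CPM. The groups were far apart, and replicate 1 sat with its fellows. The log2 fold change was -2.09 (SE 0.11, edgeR adjusted p = 0.00335) with all libraries and -2.10 without replicate 1. In HT-1080, TAF15 went from 201.3, 196.1 and 196.3 CPM to 124.6, 121.2 and 119.6 CPM, a log2 fold change of -0.77 (SE 0.04, edgeR adjusted p = 1.94e-07). The HEK-293T level fell to 23.9% of control and the HT-1080 level to 61.5%. In a fit with all 12 libraries scaled together, the fall differed between the lines by 1.25 on the log2 scale (SE 0.11, edgeR interaction adjusted p = 3.46e-05).

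FUBP1 (ENSG00000162613.17), a KH-domain protein that binds single-stranded DNA and RNA and takes part in 3′ splice site recognition, also fell in both lines. HEK-293T levels were 366.7, 364.5 and 366.1 CPM with siNegative and 77.6, 165.1 and 175.2 CPM with siHNRNPH1. Replicate 1 is the lowest of these, but the groups stay apart without it. The log2 fold change was -1.43 (SE 0.30, edgeR adjusted p = 0.0371) and -1.16 (edgeR adjusted p = 1.93e-18) without replicate 1. The HT-1080 values were 122.8, 113.4 and 122.2 CPM against 64.7, 62.3 and 64.0 CPM (log2 fold change -0.98, SE 0.05, edgeR adjusted p = 1.04e-07). The interaction test did not separate the lines (difference 0.39, SE 0.29, edgeR adjusted p = 0.393).

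SFPQ (ENSG00000116560.12), the DBHS protein that pairs with NONO in paraspeckles, read 751.9, 773.5 and 748.2 CPM in HEK-293T controls and 467.8, 572.1 and 579.8 CPM after siHNRNPH1. Its log2 fold change of -0.52 (SE 0.12) was just past the threshold (edgeR adjusted p = 0.0484), and -0.45 without replicate 1 (edgeR adjusted p = 2.44e-12). The HEK-293T call was lost with RLE or library-size scaling in place of TMM. HT-1080 went from 531.8, 492.9 and 528.9 CPM to 311.0, 312.2 and 304.5 CPM (log2 fold change -0.81, SE 0.05, edgeR adjusted p = 2.86e-07). Both lines show separate groups. Of the other members of that set, TARDBP, a UG-repeat binder, MATR3, a nuclear matrix protein, and NONO fell in HT-1080, with log2 fold changes of -0.41, -0.20 and -0.17. In HEK-293T with all libraries they did not pass, at -0.33, -0.36 and -0.04. MATR3 has a second identifier, with fewer counts, which read 0.43 in HT-1080 and was not called (edgeR adjusted p = 0.349). Without HEK-293T siHNRNPH1 replicate 1 the identifiers were called with opposite signs. The first read -0.19 (edgeR adjusted p = 8.66e-06) and the second 0.16 (edgeR adjusted p = 0.000497).

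**Figure D2:**
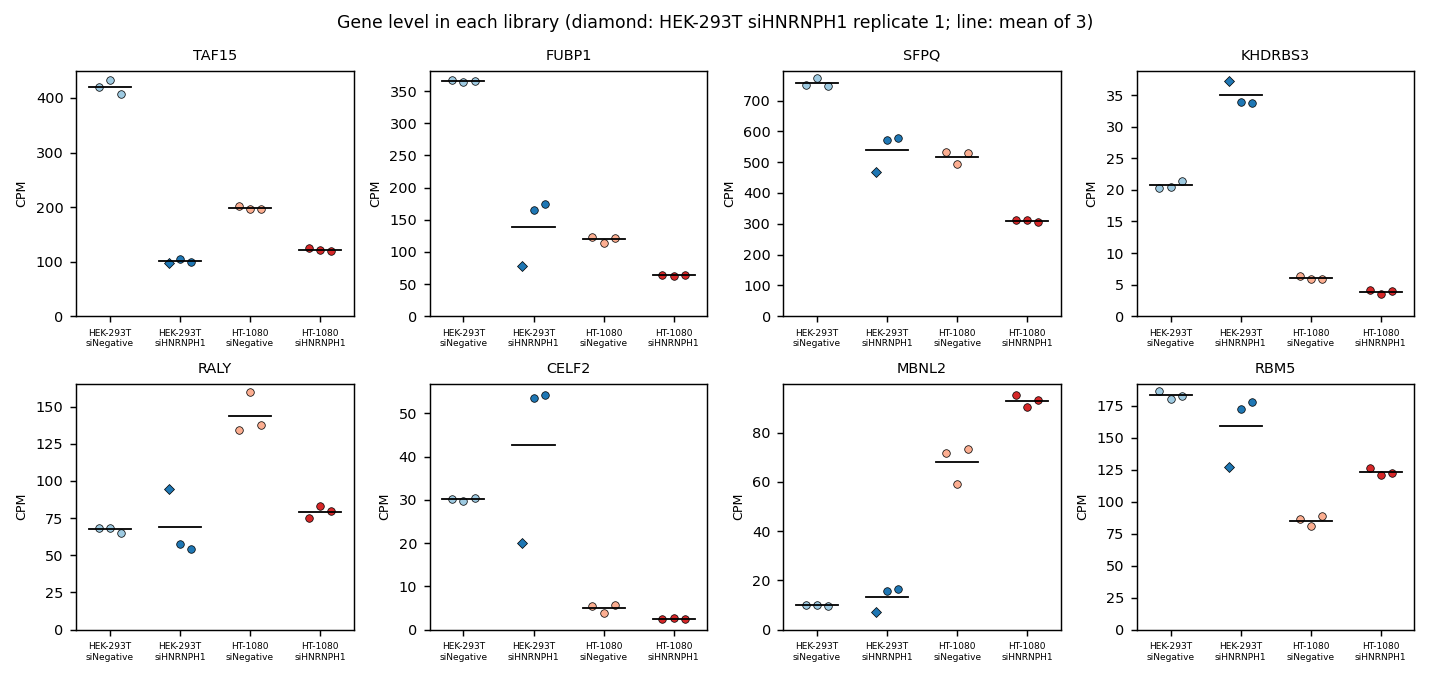
Gene level in CPM (y axis, from 0) in each library of the 4 groups for 8 members; points are libraries, the black line is the mean of 3, and diamonds are HEK-293T siHNRNPH1 replicate 1. TAF15, FUBP1 and SFPQ are lower with siHNRNPH1 in both lines, KHDRBS3 moves up in HEK-293T and down in HT-1080, and for RALY, CELF2 and MBNL2 the diamond lies on the other side of the controls from replicates 2 and 3.

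Of the 7 A/B and D type hnRNPs, abundant proteins that mostly act on exons and on AU-rich elements, 6 fell in HT-1080. HNRNPA0 (ENSG00000177733.7) went from 203.8, 206.0 and 201.0 CPM to 113.3, 118.7 and 116.1 CPM, a log2 fold change of -0.88 (SE 0.04, edgeR adjusted p = 1.02e-07). HNRNPA2B1, HNRNPAB, HNRNPA3, HNRNPD and HNRNPA1 followed at -0.77, -0.69, -0.67, -0.60 and -0.39. HNRNPDL, at -0.09, did not pass. None of the 7 passed in HEK-293T with all libraries (-0.36 to 0.04; 0 by edgeR, by DESeq2 or at an unadjusted p below 0.05), and 5 were lower without replicate 1 (HNRNPD and HNRNPDL were not called). HNRNPA0 stood at 179.7, 185.8 and 174.2 CPM in HEK-293T controls and at 149.5, 166.2 and 156.7 CPM after siHNRNPH1, with a log2 fold change of -0.22 (edgeR adjusted p = 0.259). Its change in HT-1080 was more negative by 0.73 (SE 0.11, edgeR interaction adjusted p = 0.000839).

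Both C type hnRNPs, which bind U-rich tracts, fell in HT-1080. RALY (ENSG00000125970.12) went there from 134.2, 160.0 and 137.5 CPM to 74.9, 83.4 and 79.8 CPM, a log2 fold change of -0.93 (SE 0.08, edgeR adjusted p = 3.57e-06), and HNRNPC changed by -0.37. In HEK-293T, RALY read 68.6, 68.7 and 65.0 CPM with siNegative and 94.7, 57.9 and 54.5 CPM with siHNRNPH1, so that replicate 1 was above every control and the other replicates below. Its HEK-293T log2 fold change was 0.02 with all libraries and -0.32 without replicate 1 (edgeR adjusted p = 1.41e-07). All 6 of the other hnRNPs (HNRNPM, HNRNPR, SYNCRIP, HNRNPU, HNRNPUL1 and HNRNPUL2) fell in HT-1080, between -0.71 for SYNCRIP and -0.28 for HNRNPUL1, and none was called in HEK-293T with all libraries by edgeR. HNRNPUL2 came nearest there at -0.52 (edgeR adjusted p = 0.052), was called by DESeq2 and, with HNRNPU, had an unadjusted p below 0.05.

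Of 9 KH-domain proteins, 7 fell in HT-1080 and PCBP2, a poly(C)-binding protein, rose by 0.11 on the log2 scale; FUBP3 did not pass. KHDRBS3 (ENSG00000131773.14), a STAR-family splicing factor, moved in opposite directions in the cell lines. Its HEK-293T levels were 20.3, 20.5 and 21.4 CPM with siNegative and 37.2, 34.0 and 33.7 CPM with siHNRNPH1 (log2 fold change 0.73, SE 0.12, edgeR adjusted p = 0.0213; 0.65 without replicate 1). In HT-1080 its levels were 6.37, 5.94 and 5.85 CPM against 3.52 to 4.18 CPM (log2 fold change -0.70, SE 0.10, edgeR adjusted p = 0.000223). The groups do not overlap in either line, and the lines differed by -1.51 (SE 0.16, edgeR interaction adjusted p = 0.000105). KHSRP (ENSG00000088247.19), which promotes decay of AU-rich mRNAs and the splicing of some neural exons, stood at 333.3, 332.6 and 311.7 CPM in HEK-293T controls and at 365.6, 451.7 and 401.9 CPM after siHNRNPH1. That difference, 0.29, did not pass with all libraries (edgeR adjusted p = 0.189) and did without replicate 1 (0.33, edgeR adjusted p = 0.000304). The same gene fell in HT-1080, from 389.2, 367.0 and 390.8 CPM to 325.9, 330.2 and 326.7 CPM (log2 fold change -0.29, edgeR adjusted p = 0.000193), and the lines differed by -0.65 (edgeR interaction adjusted p = 0.00269).

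The 6 pyrimidine-tract and CA-repeat binders all fell in HT-1080, with log2 fold changes from -0.87 for PTBP3 to -0.21 for RAVER1, a partner of PTBP1. PTBP1, the general repressor of neural exons, changed by -0.38 and its neural paralog PTBP2 by -0.45. HNRNPL and HNRNPLL, which bind CA repeats, changed by -0.48 and -0.39. None of the 6 passed in HEK-293T with all libraries by edgeR or DESeq2 (-0.82 to 0.47; 2 at an unadjusted p below 0.05), and 5 were lower without replicate 1; the exception, RAVER1, read 0.32 (edgeR adjusted p = 0.196).

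The cell-type-regulated factors were mixed in direction. In HT-1080, RBFOX2, MBNL3 and CELF2 fell, MBNL2 and CELF1 rose, and MBNL1 did not pass (0.03). CELF2 (ENSG00000048740.19) was low in HT-1080, at 5.49, 3.85 and 5.58 CPM with siNegative and 2.40, 2.63 and 2.46 CPM with siHNRNPH1 (log2 fold change -1.06, SE 0.16, edgeR adjusted p = 0.000237). In HEK-293T its controls read 30.1, 29.8 and 30.5 CPM, and its siHNRNPH1 libraries 20.0, 53.6 and 54.2 CPM. Replicate 1 is below the controls and the others are well above them, so the log2 fold change was 0.46 (edgeR adjusted p = 0.468) with all libraries and 0.78 (edgeR adjusted p = 3.78e-14) without it. MBNL1 and MBNL2, antagonists of the CELF proteins in developmental splicing, showed the same split of libraries in HEK-293T, while MBNL3 was below every control in all 3 siHNRNPH1 replicates (83.2, 83.3 and 80.0 CPM against 19.5, 67.5 and 72.0 CPM). MBNL1 stood at 62.3, 61.9 and 63.5 CPM in HEK-293T controls and at 53.3, 131.5 and 134.7 CPM after siHNRNPH1. Its log2 fold change was 0.73 (edgeR adjusted p = 0.233) with all libraries and 1.03 (edgeR adjusted p = 1.78e-17) without replicate 1; MBNL1 is named here after its values were seen.

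MBNL2 (ENSG00000139793.20) read 10.1, 10.2 and 9.57 CPM in HEK-293T controls and 7.15, 15.6 and 16.4 CPM after siHNRNPH1 (0.35, edgeR adjusted p = 0.499; without replicate 1 0.63, edgeR adjusted p = 2.57e-09). Its HT-1080 levels were 71.6, 59.1 and 73.4 CPM against 95.3, 90.5 and 93.1 CPM, a log2 fold change of 0.38 (SE 0.07, edgeR adjusted p = 0.00116). Without HT-1080 siNegative replicate 2, the lowest of the controls, the MBNL2 rise was 0.29. CELF1 (ENSG00000149187.19), which binds GU-rich elements, went in HT-1080 from 172.5, 148.5 and 170.4 CPM to 204.5, 196.3 and 197.9 CPM (log2 fold change 0.22, SE 0.06, edgeR adjusted p = 0.00713). Both HT-1080 rises lost their call when all 12 libraries were fitted together (edgeR adjusted p = 0.237 for MBNL2 and 0.594 for CELF1). In HEK-293T, CELF1 was 240.5, 244.3 and 242.8 CPM with siNegative and 96.7, 250.2 and 245.2 CPM with siHNRNPH1, so that replicate 1 alone was low (-0.34 with it, -0.03 without it, neither called by edgeR). ESRP2 (ENSG00000103067.14), an epithelial splicing factor, rose in HEK-293T from 3.70, 3.86 and 4.52 CPM to 6.46, 7.85 and 7.23 CPM (log2 fold change 0.81, SE 0.14, edgeR adjusted p = 0.0221; 0.85 without replicate 1).

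TIAL1 and ELAVL1, binders of U-rich and AU-rich elements, fell in HT-1080 and TIA1 did not pass (-0.13). TIAL1 (ENSG00000151923.18) went there from 163.6, 166.4 and 163.7 CPM to 117.8, 119.5 and 122.3 CPM (log2 fold change -0.53, SE 0.04, edgeR adjusted p = 2.31e-06). In HEK-293T its levels were 112.7, 113.4 and 114.1 CPM against 115.9, 123.4 and 126.2 CPM, a log2 fold change of 0.08 that did not pass with all libraries (edgeR adjusted p = 0.691), and the lines differed by -0.67 (edgeR interaction adjusted p = 0.00101).

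Among the 7 RBM proteins, 4 (RBM10, RBM17, RBM39 and RBMX) fell in HT-1080, with RBM17, a factor of 3′ splice site choice, at -0.78 and RBMX, an hnRNP G protein, at -0.69. RBM5 (ENSG00000003756.17), a regulator of apoptosis-related splicing, rose. Its HT-1080 levels were 86.1, 81.0 and 88.4 CPM with siNegative and 126.3, 120.9 and 122.7 CPM with siHNRNPH1 (log2 fold change 0.47, SE 0.05, edgeR adjusted p = 1.32e-05). In HEK-293T it read 186.6, 180.0 and 182.9 CPM against 126.7, 172.5 and 177.4 CPM, which was not called with all libraries (-0.24, edgeR adjusted p = 0.355) and was lower without replicate 1 (-0.12, edgeR adjusted p = 0.00115). The interaction was 0.63 (SE 0.14, edgeR adjusted p = 0.00757). All 4 SR-like and SR-related proteins (TRA2A, TRA2B, SRRM1 and SRRM2) fell in HT-1080, between -0.63 for TRA2B and -0.14 for TRA2A, and none passed in HEK-293T with all libraries by edgeR, by DESeq2 or at an unadjusted p below 0.05 (-0.36 to -0.17). The HT-1080 fall of SRRM2 was near the threshold (edgeR adjusted p = 0.0468). Its groups overlapped there, with siNegative libraries at 805, 582 and 788 CPM and siHNRNPH1 libraries at 644, 632 and 625 CPM.

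The difference between the lines was itself past the threshold for 20 of 56 members, where 19.0% of 21276 genes were. It was more negative in HT-1080 for 18 (10.8% of genes) and more positive for 2, TAF15 and RBM5 (8.13% of genes). RALY, KHDRBS3, CELF2 and TAF15 differed by at least 1 on the log2 scale, where 10.6% of genes were called with such a difference. Without HEK-293T siHNRNPH1 replicate 1 the count was 43, where 49.0% of genes were called. Of these 39 were more negative in HT-1080 (26.4% of genes) and 4, PCBP2, CELF1, TAF15 and RBM5, more positive (22.7% of genes). KHDRBS3, MBNL1, CELF2 and TAF15 then differed by at least 1, where 14.3% of genes were called so.

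Transcript usage asks whether the share of a gene's counts held by each transcript changed, and was tested with limma diffSplice, with a Simes p per gene. In HEK-293T, usage changed in 14 of 54 members tested, where 9.33% of genes passed. In HT-1080 it changed in 28 of 52, where 20.9% did. Without HEK-293T siHNRNPH1 replicate 1, 41 of 54 members passed (41.4% of genes). Usage was called in both lines for 12 of 52 members, where 4.9% of genes were: HNRNPA1, HNRNPA2B1, HNRNPA3, HNRNPAB, HNRNPDL, HNRNPL, HNRNPU, SYNCRIP, PCBP2, KHDRBS1, TAF15 and NONO. These calls were not equally stable. HNRNPA1 and HNRNPA3 kept theirs in each line under all 11 alternatives run, whereas KHDRBS1 lost its HT-1080 call under 8 of 10, HNRNPU its HEK-293T call under 7 of 11, and SYNCRIP its HEK-293T and HT-1080 calls under 6 and 5 of 11. HNRNPA2B1 lost its call in each line, HNRNPAB in HEK-293T and HNRNPDL in HT-1080 under 4 of 11. The remaining calls were lost under at most 2 alternatives. Without HEK-293T siHNRNPH1 replicate 1, usage was called in both lines for 24 members (14.5% of genes). By role, 5 of 6 tested A/B and D type hnRNPs were called in HEK-293T, and all 6 in HT-1080. Members have more counts and many listed transcripts, 1041 in all, so these shares are descriptions of the list.

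The same transcript moved the same way in both lines in 7 of the 12 genes, for 8 of 564 member transcripts tested in both, where 0.963% of all transcripts tested were called so. Without HEK-293T siHNRNPH1 replicate 1 there were 32 of 569, in 18 genes, where 3.36% of transcripts were. The tables list transcripts by identifier, without their exons or coding status. In HNRNPA1, an exon-silencing hnRNP, transcript ENST00000678418.1 held 5.15, 5.08 and 4.91% of the gene in HEK-293T controls and 21.0, 17.5 and 16.3% after siHNRNPH1 (limma adjusted p = 5.08e-07). Its share in HT-1080 went from 7.41, 7.42 and 7.53% to 15.8, 17.7 and 18.1% (limma adjusted p = 2.26e-15). Groups were separate in both lines, and without replicate 1 the HEK-293T difference was 11.9 points rather than 13.2. The level of the transcript itself was also higher with siHNRNPH1, at 397 CPM ± 63.8 (SD, n = 3) against 123 ± 4.18 in HEK-293T and 191 CPM ± 14.3 against 103 ± 2.39 in HT-1080.

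HNRNPAB, a CArG-box and RNA-binding hnRNP, shifted between transcripts. ENST00000355836.9 held 16.2, 15.8 and 16.0% in HEK-293T controls and 39.6, 37.3 and 39.7% after siHNRNPH1 (limma adjusted p = 0.0391; without replicate 1 limma adjusted p = 1.35e-10). In HT-1080 it held 5.84, 3.08 and 3.67% against 8.97, 8.11 and 9.11% (limma adjusted p = 0.000752). The counterpart ENST00000358344.8 held 79.0, 80.1 and 80.0% in HEK-293T controls and 55.9, 57.6 and 55.5% after siHNRNPH1, just outside the threshold (limma adjusted p = 0.0504; 1.12e-10 without replicate 1). Its HT-1080 share fell from 62.3, 60.5 and 63.4% to 54.7, 54.5 and 55.0% (limma adjusted p = 0.0142).

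HNRNPDL, a paralog of HNRNPD, did not pass the gene-level test in either line, but its variants did. Transcript ENST00000602300.5 held 57.2, 59.5 and 59.9% in HEK-293T controls and 46.1, 43.0 and 42.1% after siHNRNPH1 (limma adjusted p = 2.28e-06). Its HT-1080 shares were 49.9, 53.4 and 52.2% against 42.0, 44.0 and 40.8% (limma adjusted p = 0.0268). Each group lies apart from its control.

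TAF15 changed in variant as well as in level. Transcript ENST00000604694.2 held 0.755, 1.12 and 0.553% of the gene in HEK-293T controls and 14.2, 11.9 and 10.9% with siHNRNPH1 (limma adjusted p = 3.27e-09; 2.30e-22 without replicate 1). In HT-1080 it went from 0.775, 1.40 and 1.44% to 4.06, 4.49 and 1.89% (limma adjusted p = 0.000911). While the gene as a whole fell, this transcript stood at 12.4 CPM ± 1.58 (SD, n = 3) against 3.43 ± 1.32 in HEK-293T, and at 4.25 CPM ± 1.73 against 2.38 ± 0.71 in HT-1080, where the siHNRNPH1 libraries at 5.06, 5.44 and 2.26 CPM overlap the controls at 1.56, 2.75 and 2.82 CPM.

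The remaining transcripts that were called in both lines all lost share. NONO transcript ENST00000420903.6 went from 4.33, 4.01 and 3.51% to 0.865, 1.00 and 0.795% in HEK-293T (limma adjusted p = 0.0166) and from 5.94, 5.46 and 7.02% to 1.85, 1.19 and 1.31% in HT-1080 (limma adjusted p = 1.66e-09). PCBP2 transcript ENST00000548933.5 went from 7.47, 8.75 and 7.95% to 4.35, 3.80 and 3.88% in HEK-293T (limma adjusted p = 0.00743) and from 3.75, 3.69 and 2.71% to 0.292, 0.654 and 0.437% in HT-1080 (limma adjusted p = 9.92e-14). These 2 separate the groups in each line. The other PCBP2 transcript, ENST00000546463.6, held 0.494 to 0.751% in HEK-293T controls and 0.193 to 0.281% after siHNRNPH1, and 3.56 to 4.03% against 0.996 to 2.08% in HT-1080. SYNCRIP, a cytoplasmic and nuclear hnRNP Q protein, had 19.5, 18.4 and 16.9% of its counts in ENST00000444272.2 in HEK-293T controls and 0, 10.3 and 11.5% after siHNRNPH1, the 0 being replicate 1 (limma adjusted p = 0.0159; 9.91e-07 without it). Its HT-1080 shares were 7.90, 5.37 and 7.60% against 1.96, 3.50 and 0.339% (limma adjusted p = 0.00343).

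**Figure D3:**
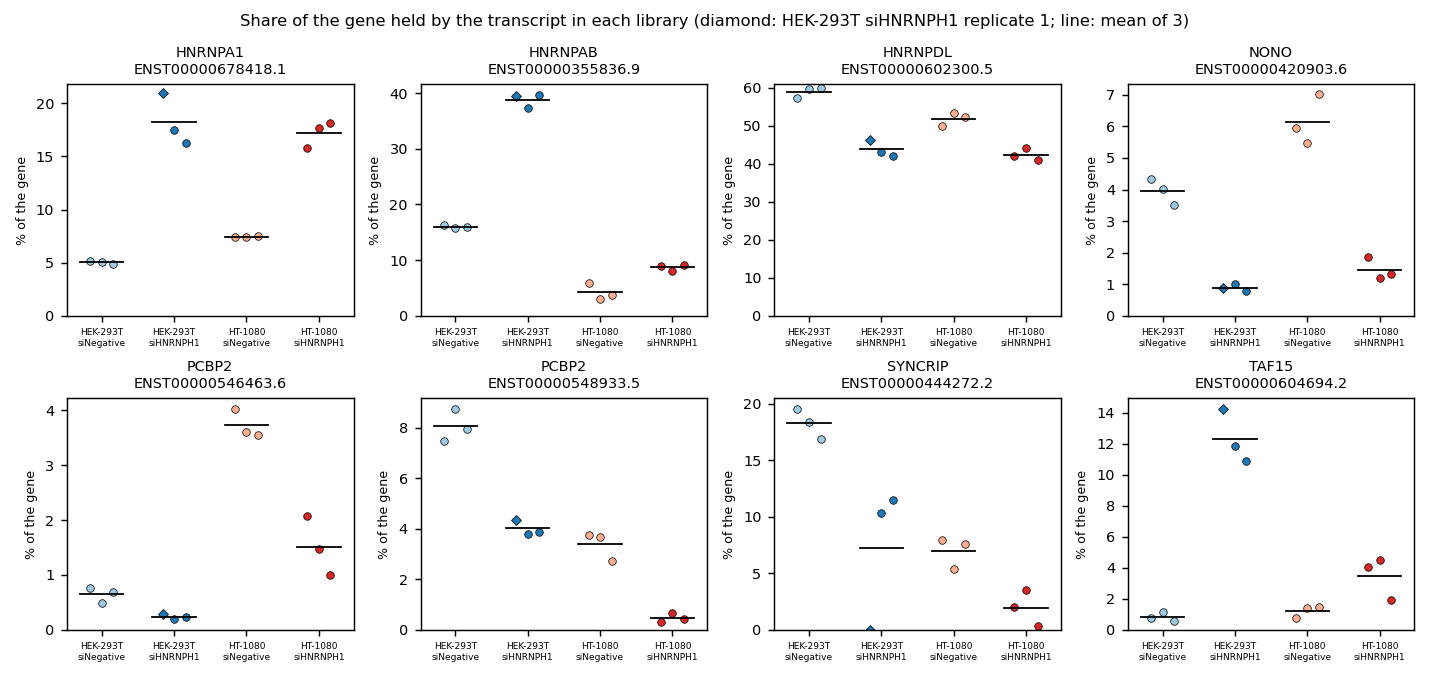
Percent of the gene's expected counts held by each of the 8 transcripts called in both lines in the same direction (y axis, from 0) in each library; points are libraries, the black line is the mean of 3, and diamonds are HEK-293T siHNRNPH1 replicate 1. Shares rise with siHNRNPH1 for HNRNPA1, HNRNPAB and TAF15 and fall for the other 5, and the SYNCRIP diamond lies at 0.

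In the other 5 of the 12 genes no transcript was called the same way in both lines. In HNRNPL, ENST00000647557.1 fell in HT-1080 from 14.0, 13.9 and 13.6% to 5.73, 6.64 and 6.05% (limma adjusted p = 9.32e-05) and went in HEK-293T from 9.46, 8.99 and 10.8% to 6.51, 4.75 and 3.10%, which did not pass with all libraries (limma adjusted p = 0.0909; 1.57e-13 without replicate 1). HNRNPA2B1 had the 1 transcript called in opposite directions, ENST00000678962.1, at 1.62, 2.01 and 2.28% against 0, 1.80 and 1.80% in HEK-293T and at 0.467, 1.08 and 0.768% against 1.69, 1.99 and 1.18% in HT-1080. Its HEK-293T value of 0 is replicate 1. By the size of the shift alone, 3 transcripts moved at least 10 points the same way in both lines: ENST00000631460.1 of CELF2, ENST00000361059.7 of the second MATR3 identifier and ENST00000523347.1 of ESRP1. None of them was called. The first and second moved by -11.4 and -10.4 points in HEK-293T with replicate 1 and by 1.24 and 5.43 points without it, and the ESRP1 transcript had a mean of 0.363 and 1.17 expected counts per library.

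The IsoSeq pools list transcript models with exon coordinates (GRCh38.p13 per the submitters' processing notes) but no read counts, so that each model counts once and the exact 95% binomial intervals cover the counting of models only. With 1 pool per group there is no test, and the HEK-293T siHNRNPH1 pool cannot be given without replicate 1. The files hold 64705 models in HEK-293T siNegative, 94847 in HEK-293T siHNRNPH1, 72186 in HT-1080 siNegative and 68078 in HT-1080 siHNRNPH1. Internal exons of members were compared where at least 10 models spanned the exon in each pool and at least 10% carried it in one of them, which left 281 exons of 24 members; these limits were chosen after the data were seen. A model counted as carrying an exon only with both exact borders, so reading through an adjoining intron also lowers the share. The share moved by at least 10 points the same way in both lines for 10 of the 281. These lie in CELF1, NONO, PTBP1, HNRNPM and TIAL1, and some are neighbouring or overlapping exons of the same gene. Exons that moved in opposite ways were not counted, so this number has no reference.

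In CELF1, an exon found in siHNRNPH1 models of both lines was in no control model. This exon of 110 nt at chr11:47495943-47496052 (minus strand) was in 0 of 34 spanning models of the HEK-293T siNegative pool, which allows a share of up to 8.82% at a floor of 3 models (the upper end of the exact interval is 10.3%), and in 32 of 59 (54.2%, interval 40.8 to 67.3%) of the siHNRNPH1 pool. In HT-1080 it was in 0 of 24 models with siNegative, which allows up to 12.5% at that floor (exact upper end 14.2%), and in 6 of 30 (20.0%, interval 7.71 to 38.6%) with siHNRNPH1. It lies between CELF1 exons of the models, in a region that the control models span without an exon of these borders. The next exon upstream, 152 nt at chr11:47499453-47499604, was in 44.1% of control and 67.8% of siHNRNPH1 models in HEK-293T, and in 41.7% and 63.3% in HT-1080, with overlapping intervals. Among short-read transcripts of CELF1, ENST00000395290.6 rose in HT-1080 from 18.3, 20.8 and 18.7% to 29.3, 23.7 and 29.8% (limma adjusted p = 0.000953). In HEK-293T it read 23.0, 21.4 and 21.3% against 10.3, 26.1 and 25.0%, the lowest being replicate 1 (limma adjusted p = 0.998; 0.000324 without it). Whether that transcript holds the exon was not checked here.

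NONO, which has the transcript described above, also differed between pools at a group of neighbouring exons. The exon of 85 nt at chrX:71297377-71297461 was in 26 of 36 models (72.2%) of the HEK-293T siNegative pool and 29 of 55 (52.7%) of the siHNRNPH1 pool, and in 22 of 24 (91.7%) and 17 of 24 (70.8%) in HT-1080. An exon of 1132 nt that starts at the same base and runs to chrX:71298508, across the introns that follow, was in 16.7% against 36.4% of models in HEK-293T and 8.33% against 25.0% in HT-1080. All of these intervals overlap within a line. PTBP1 carried an exon of 34 nt at chr19:807869-807902 in 89.5% against 76.9% of models in HEK-293T and in 90.9% against 73.1% in HT-1080, again with overlapping intervals. This was not particular to that exon. The PTBP1 exons of 173 and 78 nt went from 100 to 70.4% and from 63.2 to 36.1% in HEK-293T. In HT-1080 they went from 100 to 88.9% and from 54.8 to 44.0%. PTBP1 exons of 175 and 76 nt were also lower in both lines. Whether exons were skipped or adjoining introns kept was not tested.

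**Figure D4:**
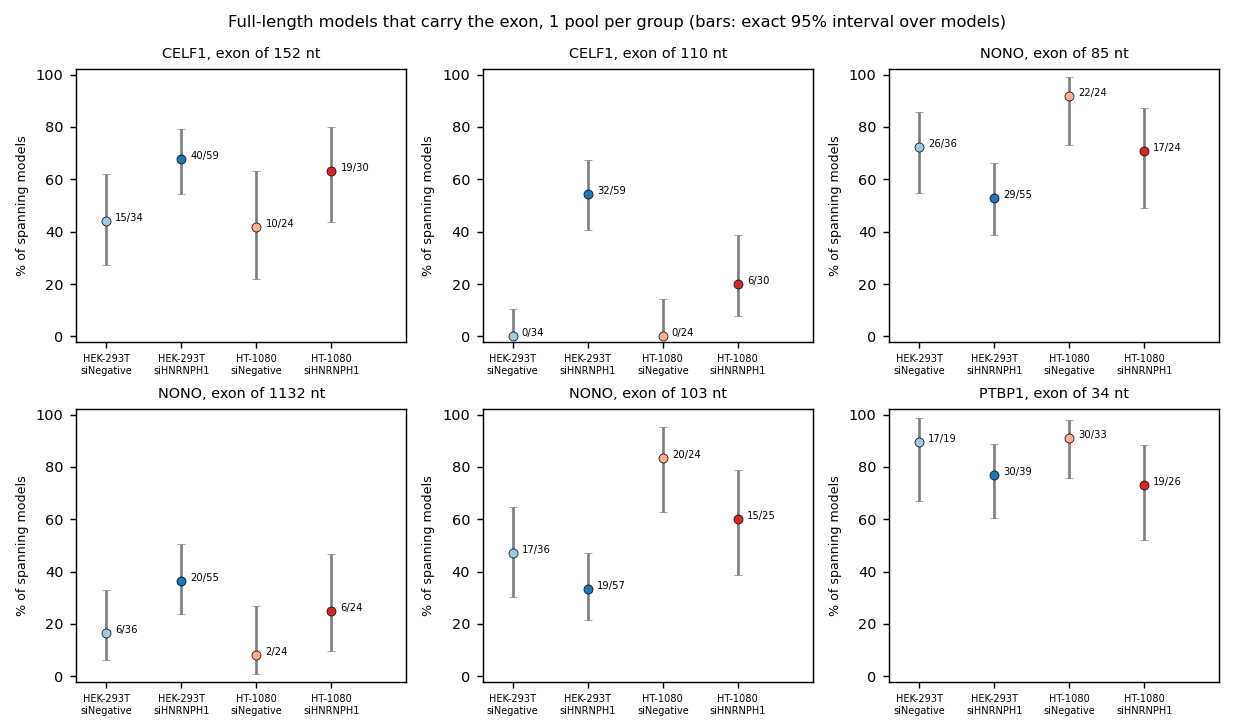
Percent of the full-length models spanning an exon that carry it (y axis, 0 to 100), in the 4 pools, for the 6 exons with the largest shift in the same direction in both lines; bars are exact 95% binomial intervals over models and the fractions are models carrying over models spanning. The 110-nt CELF1 exon is at 0 of 34 and 0 of 24 in the control pools and at 32 of 59 and 6 of 30 in the siHNRNPH1 pools, whose intervals do not reach the control intervals in HEK-293T.

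As context, 87 other splicing regulators (SR proteins and spliceosome components among them) were listed, and 86 were in the tables. In HEK-293T, 3 of 81 tested rose and 6 fell, where 5.12% of all genes tested were called higher and 4.88% lower. Without siHNRNPH1 replicate 1, 22 rose and 41 fell, where 30.5% of genes were called higher and 31.3% lower. In HT-1080, 16 of 70 rose and 41 fell, where 32.7% of genes were called higher and 32.6% lower. Their median log2 fold change in HT-1080 was -0.27, beside -0.43 for the members and 0.01 for all genes.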

How the data were processed

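The authors' deposited tables hold RSEM expected counts of each transcript on GRCh38.p13, per the submitters' processing notes; the RSEM version, aligner, annotation release and strandedness are not given in the sources used here. IsoSeq models were deposited as exon coordinates. Expected counts were summed per gene identifier and rounded. Genes past filterByExpr were TMM-scaled and tested per line with the edgeR (4.0.16) quasi-likelihood test, two-sided, BH-adjusted over all genes tested. Usage was tested on rounded transcript counts with limma (3.58.1) voom and diffSplice. The interaction used all 12 libraries, filtered and scaled together, so its values need not equal the difference of the per-line fold changes. The threshold was an adjusted p of 0.05. Samples were grouped by their labels, and 0 value columns were unmatched. MATR3 has a pair of identifiers and the one with more counts stands for it. The gene-level, interaction and usage tests were run on simulated counts, and the IsoSeq comparison was not. All simulated libraries had the same spread, so they do not cover a library that stands apart, as HEK-293T siHNRNPH1 replicate 1 does.

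Members and lists were chosen with earlier results of these data known. Values per library were printed for members called in both lines with a log2 fold change of 0.5 or more in size, or with opposite signs, the 3 most changed called members per direction and line, the 5 members with the smallest interaction p, and transcripts called the same way in both lines. P-values measure the spread between the 3 biological replicates. Those given without HEK-293T siHNRNPH1 replicate 1 rest on siHNRNPH1 replicates 2 and 3 alone. That library was left out because of its values, so these p-values can understate the variation between replicates. Pairs of libraries of 1 group all differed beyond sampling noise.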

Additional observations from a re-analysis of the deposited data

Results flagged for a closer look

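The change after siHNRNPH1 differed between the lines for 20 members, by the edgeR interaction test over the 12 libraries (BH-adjusted p below 0.05). Values are the HT-1080 log2 fold change minus the HEK-293T one, as estimated in a fit with the 12 libraries scaled together. They therefore need not equal the difference of the per-line fold changes given above. Scaled by library size alone, the value was -0.62 rather than -0.73 for HNRNPA0 and -0.89 rather than -1.03 for RALY. It was positive for TAF15 (1.25), which fell less in HT-1080, and for RBM5 (0.63), which rose in HT-1080. The most negative values were those of CELF2 (-1.58), KHDRBS3 (-1.51) and RALY (-1.03). RBM17 (-0.79), RAVER1 (-0.76), HNRNPA0 (-0.73), HNRNPD (-0.71), TIAL1 (-0.67) and KHSRP (-0.65) followed. For RBMX it was -0.54, for ELAVL1 -0.51, for TRA2B -0.49, for HNRNPA2B1 -0.48 and for HNRNPA3 -0.47. HNRNPLL (-0.39), HNRNPUL1 (-0.37), SFPQ (-0.36) and PTBP1 (-0.34) had the smallest differences. The CELF2 and RALY values rest partly on HEK-293T siHNRNPH1 replicate 1, without which they were -1.89 and -0.66, both past the threshold by edgeR. Under the 17 alternatives, the SFPQ difference lost its call in 15, the RALY one in 11, the CELF2 one in 6 and the KHSRP one in 1.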

How the results depend on the processing

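The HEK-293T gene counts depended most on the choice of libraries. The 5 members called there became 2 when a log2 fold change of 1 or more in size was required, 11 with all 12 libraries in 1 fit and 0 to 48 when 1 library was left out, the 48 being without siHNRNPH1 replicate 1. Over all genes, the 1997 calls became 1173, 4551 and 0 to 12557 under the same changes. With 0 called by edgeR, 6 members had an unadjusted p below 0.05 without siNegative replicate 2 or 3, and DESeq2 called 6 on all libraries. Members called in both lines in the same direction numbered 3, 6 with all 12 libraries in 1 fit, and 0 to 35 when 1 library was left out. Over all genes, 814 were called so, and 4778 without HEK-293T siHNRNPH1 replicate 1, which gave the 35. The 49 HT-1080 members became 1 when a log2 fold change of 1 or more in size was required, where the calls over all genes went from 10538 to 2514. HEK-293T usage calls (14) ranged from 8 to 41 when 1 library was left out, and the HT-1080 usage calls (28) were 15 with diffSpliceDGE. Over all genes, the HEK-293T usage calls were 1214, and 5539 without siHNRNPH1 replicate 1, which gave the 41. The 20 interaction calls became 13 when scaled by library size alone, 8 with no low-count filter, and 11 to 43 when 1 library was left out. Over all genes, the 4036 interaction calls became 4082, 3042 and 2776 to 9535 under the same changes. The cause was not tested.

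With the replicate number as a replicate block, 0 HEK-293T members were called (9 at an unadjusted p below 0.05), 48 HT-1080 members, 0 in both lines, 9 for the interaction, and usage in 13 and 27. Over all genes, the block left 0 called in HEK-293T, 10504 in HT-1080 and 2535 for the interaction. Without the block these were 1997, 10538 and 4036. Same-numbered libraries shared little: the correlation of their deviations from the group means was 0.023 to 0.098 in HEK-293T and -0.0021 to 0.085 in HT-1080. In HEK-293T, but not in HT-1080, every siNegative library correlated best with its own number, a hint from the data only.

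RALY in HEK-293T (0.02) turned to -0.010 with no low-count filter and -0.039 with the replicate block, and ranged from -0.32 to 0.17 when 1 library was left out. The MBNL2 interaction (-0.03) turned to 0.059 by library size alone, 0.052 with no low-count filter and 0.039 with the replicate block, and ranged from -0.30 to 0.14. The ESRP2 interaction (-0.69) ranged from -1.14 to 0.15. Over all alternatives of all values for single genes and transcripts, the direction and side of the threshold held 776 times, the call was lost 123 times and gained 9 times, and the 12 changes of sign were those of these 3 values.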
